A study of Mus musculus with 12 samples.

Results

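Solute carriers are membrane transporters that move amino acids, sugars, organic anions and cations, nucleosides, fatty acids, metals and metabolic intermediates across the plasma membrane and the membranes of organelles. In the fasting liver they stand at the entry and exit points of the metabolic routes that the organ switches on: amino acids and carnitine enter the hepatocyte from the blood, ornithine, citrulline, aspartate, phosphate and dicarboxylates cross the inner mitochondrial membrane to serve the urea cycle and gluconeogenesis, and glucose leaves the cell. The genes were taken as the features (spots of 1 oligonucleotide) of an Agilent mouse array whose gene name starts with Slc, a family number and a letter, apart from 1 such feature that was left out. This gave 109 of 20280 array features, which carried 79 gene names. They were grouped by substrate into amino acids (21 features), glucose and related hexoses (7), organic ions (13), mitochondrial carriers (15), metals (6) and others (47), among them nucleosides, fatty acids, vitamins and inorganic ions. Adaptors named after a transporter, such as Slc4a1ap (3 features), are not transporters themselves. They were counted with the others and are part of every share of the 109 below.

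The arrays compared livers of male FVB mice of 6 weeks that were fed or had their chow removed for 12, 24 or 72 hours, with 3 arrays per group and 2 livers pooled on each array. Fasting took place in metabolic cages, and an infrared lamp warmed the mice from 24 hours on. Every sample was labelled with Cy3 and hybridized against a common Cy5-labelled reference of RNA pooled from 6 fed livers, and the dyes were not exchanged, so that all values below are log2 ratios of sample over fed reference or differences between such ratios. The fed samples and the reference may have come from the same 6 livers. Whole liver was measured, and fewer cells of a type cannot be told apart from less RNA per cell. An Slc name was given in both versions of the gene names that the files hold for 82 of the 109 features and in only 1 version for 27, and where the versions conflict on a feature described here, this is stated with it.

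All 109 features were well enough detected to be tested at every time, and 98 were well above background on all 12 arrays. The sample signal of the 109 features had a median of 4.06 to 14.9 times the local background, and it was lowest on 12 h array 2 (5.25 times) and 24 h array 3 (4.06 times), as it was over all features (4.72 and 3.50 times, against 5.34 to 10.6 times on the other arrays). On these 2 arrays, called low-signal arrays below, many transporters stood apart from both other arrays of the same group. Calls made without these arrays are therefore given beside the value with all arrays. Images were quantified on 3 days: fed arrays 2 and 3 with the 72 h arrays on day 1, both remaining arrays of 12 h and of 24 h on day 2, and fed array 1 with the low-signal arrays on day 3. Day 2 holds no fed array, so that without the low-signal arrays a difference of 12 or 24 h from fed and a difference between days cannot be told apart, whereas 72 h can be compared with fed within day 1. No day holds arrays of both 72 and 24 h, so that without the low-signal arrays these times and the days cannot be told apart either. With all arrays they are linked only through the fed arrays of days 1 and 3. Markers of the hepatocyte were measured by 10 features, of which 9 were well above background on all arrays. Their median signal over background was 20.0 and 41.4 on the low-signal arrays and 236 to 558 on the others, while their median ratio to the fed mean stayed between -0.41 and 0.06. The median shift against fed of the features for leukocytes (5), endothelium (4), stellate cells and fibroblasts (7), bile ducts (5) and red cells (4) lay between -0.26 and 0.08 with all arrays and between -0.30 and 0.06 without the low-signal arrays. The only pancreatic feature, Cpa1, was 0.71 higher than fed at 12 h with all arrays and 1.20 higher without the low-signal arrays (limma, adjusted p = 0.956 and 0.144). Single marker features were called in the latter setting: Dcn of fibroblasts was higher by 1.01 at 12 h and 1.00 at 24 h (adjusted p = 0.0248 and 0.0129), and at 72 h Vim fell by 0.49 and the hepatocyte product Ttr fell by 1.35 (adjusted p = 0.0450 and 0.0417). The part of such cells in the results was not tested.

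The median of the solute carriers stayed at the fed level during fasting (the plot of fold changes by substrate group). With all arrays the median log2 fold change of the 109 features was 0.01 at 12 h, 0.00 at 24 h and 0.00 at 72 h, beside -0.01, 0.00 and -0.01 over all features tested. Individual features ranged from -1.44 to 1.23 at 12 h, from -1.57 to 1.15 at 24 h and from -1.29 to 1.42 at 72 h. No feature of a solute carrier passed the test (limma, Benjamini-Hochberg adjusted p under 0.05 over all features and at least 1.4-fold) at any time, against 1 of 20110 features of the whole array at 12 h (0.00497%), 1 at 24 h (0.00497%) and 2 of 20081 at 72 h (0.00996%), nor between 24 and 12 h or between 72 and 24 h, where no feature of the array passed (0.00% each). An unadjusted p under 0.05 was reached by 6 solute carrier features at 12 h, 5 at 24 h and 2 at 72 h against fed, by 1 between 24 and 12 h and by 5 between 72 and 24 h. These were 5.50%, 4.59%, 1.83%, 0.917% and 4.59% of the 109, beside 3.92%, 3.04%, 1.55%, 0.945% and 3.42% of all features. The criterion of an unadjusted p under 0.01 with at least 1.4-fold was met by 1 of the 109 features at 12 h and 1 at 24 h, Slc22a5 both times, and by none at 72 h, while 0.656%, 0.641% and 0.428% of all features met it.

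**Figure D1:**
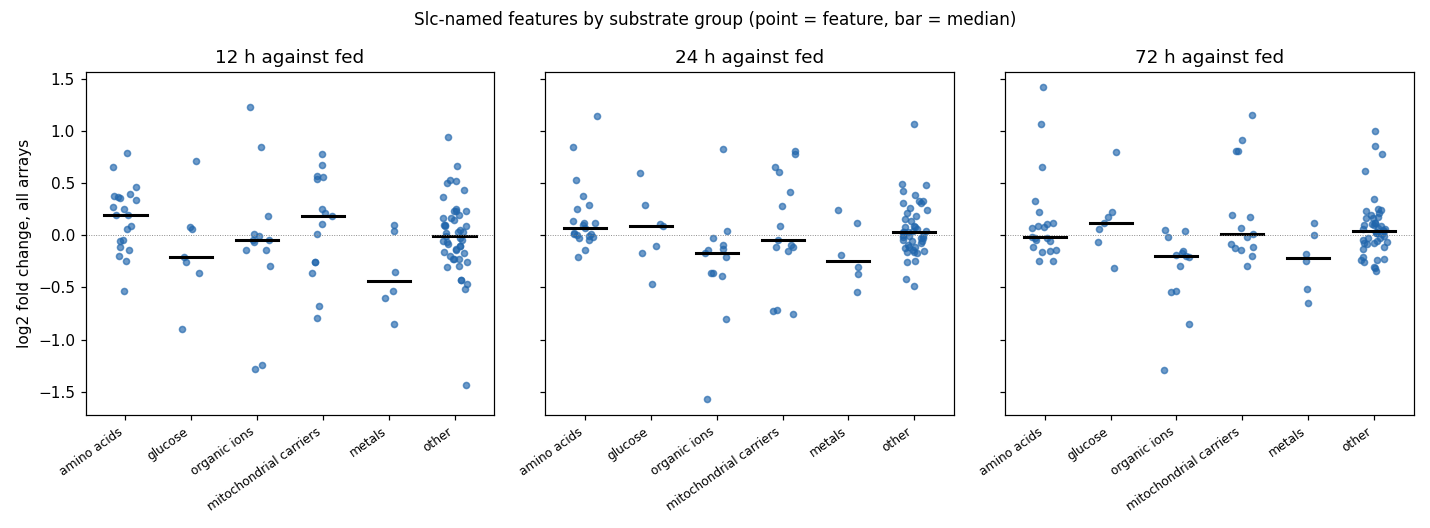
Log2 fold change against fed of each of the 109 solute carrier features with all arrays (y axis), in 6 substrate groups (x axis) at 12, 24 and 72 h. Each point is a feature and each bar a group median. The group medians run from -0.44 (metals, 12 h) to 0.20 (amino acids, 12 h). The highest points are Slc22a5 at 12 h (1.23), Slc7a2 at 24 h (1.15) and Slc38a4 at 72 h (1.42). The lowest at 24 and 72 h is Slc22a7 (-1.57 and -1.29), and 11 of the 13 organic ion features lie below 0 at each of these times.

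The spread between arrays of a group set what could pass. The median SD of a solute carrier feature was 0.17 in the fed and 0.12 in the 72 h group, but 0.42 at 12 h and 0.30 at 24 h. Without the low-signal arrays, 6 features were called higher and 1 lower than fed at 12 h, where 1.71% and 0.895% of all features were called in these directions. At 24 h 14 were called higher and 4 lower (5.21% and 3.61% of all features), and at 72 h 2 were called higher and none lower (0.687% and 0.149%). The share of the 109 was thus 5.50% higher and 0.917% lower at 12 h, 12.8% and 3.67% at 24 h, and 1.83% higher at 72 h. The 72 h values themselves do not change when the low-signal arrays are left out, only the estimate of the spread does. Array weights, which count each array by its own noise, gave 18, 21 and 11 calls against fed at 12, 24 and 72 h (16.5%, 19.3% and 10.1% of the 109, beside 9.53%, 10.5% and 4.09% of all features) and 7 between 72 and 24 h (6.42%, beside 4.26%). All 7 features called at 12 h without the low-signal arrays and 17 of the 18 called at 24 h were among them, on the same side of fed. The low-signal arrays had weights of 0.0368 (12 h) and 0.0986 (24 h), against 0.546 to 7.15 on the others. This fit thus nearly leaves out the same arrays, and the overlap is no separate support for the calls.

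Treating the day of quantification as a block gave largely different calls. It also changed the sign of most estimates behind the 12 and 24 h calls made without the low-signal arrays. This fit takes the 12 and 24 h values mostly from the low-signal arrays against fed array 1, which share day 3. It called 19 features at 12 h (6 higher, 13 lower), 12 at 24 h (5 higher, 7 lower) and 8 between 72 and 24 h. Of all features 22.4%, 11.6% and 10.6% were called in these comparisons, so that the share of the solute carriers (17.4% at 12 h, 12 of 109 at 24 h and 7.34% between 72 and 24 h) was not above it. At 72 h against fed it called none of the 109 (0.0199% of all features), and the fit of the 72 h and fed arrays alone called 1, Slc38a4 (0.917%, beside 0.339%). Of the features called without the low-signal arrays, 5 of 7 at 12 h, 13 of 18 at 24 h and 4 of 6 between 72 and 24 h lay on the other side of 0 with the day block. Most of these day block values were not called, and some were near 0, such as -0.01 ± 0.25 for Slc25a13 (13890) at 24 h. The only feature called on the same side by both was Slc22a7, lower at 24 h. The only one called on opposite sides was Slc25a3 (7998) at 12 h. The sign of the estimate for most 12 and 24 h calls described below therefore changes with the fit, and the day block value is given where it can be estimated. Slc30a3, 1 of the 13, and Slc19a2, among the 18 but not the 13, had no value on fed array 1. No day held both a fed and a 24 h value of either, so that the block cannot estimate their 24 h difference.

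The features called at both 12 and 24 h without the low-signal arrays belong to Slc38a4, Slc7a2, Slc29a1, Slc22a5, Slc25a3, Slc25a13 and, in the downward direction, Slc25a10. Upstream sequence is given for Slc38a4 and Slc29a1, which were called at all 3 times, and for Slc25a3 and Slc25a13, the ones with a motif match. The sequences are from RefSeq (GRCm38.p6), matched by symbol for 6 of the 7 genes, and Slc7a2 is named only. Motifs were searched on both strands of the 250 bases before the first listed start: AGGTCA (nuclear receptor half-site, in 14.0% of 32851 promoters), TGACGT (core of the cAMP response element, 6.47%), GTAAACA (forkhead box O site, 3.17%), CACGTG (E-box, 6.02%) and TGTTCT (glucocorticoid receptor half-site, 16.1%). None of these motifs contains another. A match in capitals was found in Slc25a13 and in Slc25a3, 1 each, and the windows of Slc38a4, Slc29a1, Slc22a5 and Slc25a10 held none. Slc29a1 has 8 listed starts and Slc38a4 has 3, and the windows of their other starts were not searched. The windows lie on the minus strand at chr15:97055957-97056206 (Slc38a4), chr17:45599619-45599868 (Slc29a1), chr10:91123968-91124217 (Slc25a3) and chr6:6217174-6217423 (Slc25a13).
Slc38a4: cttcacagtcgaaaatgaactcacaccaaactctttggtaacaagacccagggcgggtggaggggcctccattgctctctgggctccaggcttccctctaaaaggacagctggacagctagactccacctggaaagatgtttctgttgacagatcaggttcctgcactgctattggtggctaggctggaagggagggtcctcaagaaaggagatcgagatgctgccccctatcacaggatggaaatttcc
Slc29a1: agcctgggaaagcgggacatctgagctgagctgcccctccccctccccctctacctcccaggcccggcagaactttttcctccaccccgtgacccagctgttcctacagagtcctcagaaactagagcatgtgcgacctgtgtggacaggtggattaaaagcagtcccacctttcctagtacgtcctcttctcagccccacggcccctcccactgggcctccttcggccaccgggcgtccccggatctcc
Slc25a3: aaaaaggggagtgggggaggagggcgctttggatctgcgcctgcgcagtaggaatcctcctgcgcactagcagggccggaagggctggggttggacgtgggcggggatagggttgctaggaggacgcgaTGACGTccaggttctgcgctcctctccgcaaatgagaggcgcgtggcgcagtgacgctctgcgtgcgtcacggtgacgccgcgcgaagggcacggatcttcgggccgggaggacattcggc
Slc25a13: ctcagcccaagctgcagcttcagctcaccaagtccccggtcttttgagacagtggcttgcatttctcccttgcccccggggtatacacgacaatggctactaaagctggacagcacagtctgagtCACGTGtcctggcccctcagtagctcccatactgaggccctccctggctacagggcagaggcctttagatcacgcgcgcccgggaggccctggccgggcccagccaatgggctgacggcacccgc

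Of the amino acid transporters, Slc38a4 was the one called at all 3 times when the low-signal arrays were left out. It encodes a sodium-coupled neutral amino acid transporter (SNAT4) that imports alanine and other gluconeogenic amino acids and is abundant in liver. The log2 ratios of feature 13137 were 0.36, 0.45 and -0.09 on the fed arrays, 1.62, -0.40 and 1.48 at 12 h, 1.60, 1.56 and 0.10 at 24 h, and 1.37, 2.08 and 1.54 at 72 h. All arrays of 72 h lay above all fed arrays, whereas at 12 and 24 h both arrays of day 2 lay above them and the low-signal array overlapped or lay below. With all arrays the difference was 0.66 ± 0.54 at 12 h, 0.85 ± 0.54 at 24 h and 1.42 ± 0.54 at 72 h (log2 ± SE, n = 3 and 3; limma, adjusted p = 0.956, 1.00 and 1.00). Without the low-signal arrays Slc38a4 rose 2.48-fold at 12 h (adjusted p = 0.0186), 2.53-fold at 24 h (adjusted p = 0.00797) and 2.68-fold at 72 h (adjusted p = 0.00907). The day block turned the 12 and 24 h values to -0.60 ± 0.33 and -0.41 ± 0.33 and gave 1.48 ± 0.23 at 72 h (adjusted p = 0.209, 0.434 and 0.101). With the arrays of day 1 alone the 72 h difference was 1.48 ± 0.24 with an adjusted p of 0.141, and in a comparison of 72 h and fed arrays alone it passed (1.42, adjusted p = 0.0260).

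The second feature of Slc38a4 (18660) read 0.44, 0.48 and 0.07 on the fed arrays and 1.06, 1.93 and 1.20 at 72 h, again without overlap. Its values were 0.66, -2.39 and 1.13 at 12 h and 1.01, 0.91 and -0.94 at 24 h, where the low-signal arrays lay below every fed array. Without them this feature differed from fed by 0.56 ± 0.24, 0.63 ± 0.24 and 1.07 ± 0.22 at 12, 24 and 72 h and did not pass (limma, adjusted p = 0.208, 0.112 and 0.0543). With all arrays the differences were -0.53 ± 0.80, 0.00 ± 0.80 and 1.07 ± 0.80, and with the day block this feature was called lower at 12 h (-2.37 ± 0.49, adjusted p = 0.0136) and 24 h (-1.84 ± 0.49, adjusted p = 0.0428).

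Slc7a2 (feature 468) encodes CAT2, a transporter of arginine, lysine and ornithine whose liver form has a low affinity. Its ratios were 0.00, 0.03 and -0.18 in the fed group, 1.11, -0.49 and 1.60 at 12 h, 1.67, 2.16 and -0.52 at 24 h, and 0.26, 0.97 and 0.60 at 72 h. The 24 h arrays of day 2 were the highest, both low-signal arrays lay below all fed arrays, and the 72 h arrays lay above the fed ones. The differences from fed were 0.79 ± 0.65 and 1.15 ± 0.65 at 12 and 24 h with all arrays (limma, adjusted p = 0.956 and 1.00) and -0.69 ± 0.36 and -0.32 ± 0.36 with the day block (adjusted p = 0.191 and 0.591). With both low-signal arrays left out, Slc7a2 rose 2.64-fold at 12 h (limma, adjusted p = 0.0178) and 3.91-fold at 24 h (adjusted p = 0.00252) and differed by -1.31 ± 0.22 between 72 and 24 h (adjusted p = 0.0319), against -0.49 ± 0.66 with all arrays and 1.00 ± 0.44 with the day block. Its 72 h value, 0.66 ± 0.20 above fed, did not pass (adjusted p = 0.152).

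The other amino acid transporters of the liver list moved less. Slc38a3 (feature 3495), the system N transporter of glutamine and histidine, read 0.94, 0.59 and 0.60 in the fed group, 1.36, 0.62 and 0.89 at 12 h, 1.44, 1.33 and 0.50 at 24 h, and 0.24, 1.07 and 0.48 at 72 h. Its groups overlapped at all times, and without the low-signal arrays its largest difference was 0.67 ± 0.23 at 24 h (limma, adjusted p = 0.0810). Slc3a2 (feature 18718), the heavy chain that partners several amino acid exchangers, stayed within 0.14 of fed at every time with all arrays. Slc7a7 (feature 8593), the light chain of the y+L exchanger of cationic amino acids, was on the other side: its 72 h ratios of -0.07, 0.00 and -0.02 lay below the fed ratios of 0.42, 0.17 and 0.06, with a difference of -0.25 ± 0.16 that did not pass (adjusted p = 1.00).

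The 4 features of the taurine transporter Slc6a6 differed from fed by -0.04 to 0.40 over the 3 times with all arrays, and none passed. Feature 2209 was the highest without the low-signal arrays (0.58 ± 0.19 at 24 h; limma, adjusted p = 0.0794), when the 3 others lay between -0.13 and 0.02. The 4 features of Slc38a1 (SNAT1), of which 3 carry another name in 1 of the versions, lay between -0.25 and 0.53. On feature 13101 the 24 h arrays (0.16, 0.22 and 1.29) lay above the fed mean of 0.02 and the 72 h arrays (-0.11, -0.15 and -0.15) below it. The low-signal arrays were the highest of their groups (1.25 at 12 h), and the day block called this feature higher at both times (1.01 ± 0.17 and 1.17 ± 0.17; limma, adjusted p = 0.00697 and 0.00908), whereas without these arrays it was -0.05 ± 0.11 and 0.17 ± 0.11 from fed. Over the whole group of 21 features, 14 were above and 7 below fed at 24 h with a median of 0.07, and at 72 h 10 were above and 11 below with a median of -0.02.

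**Figure D2:**
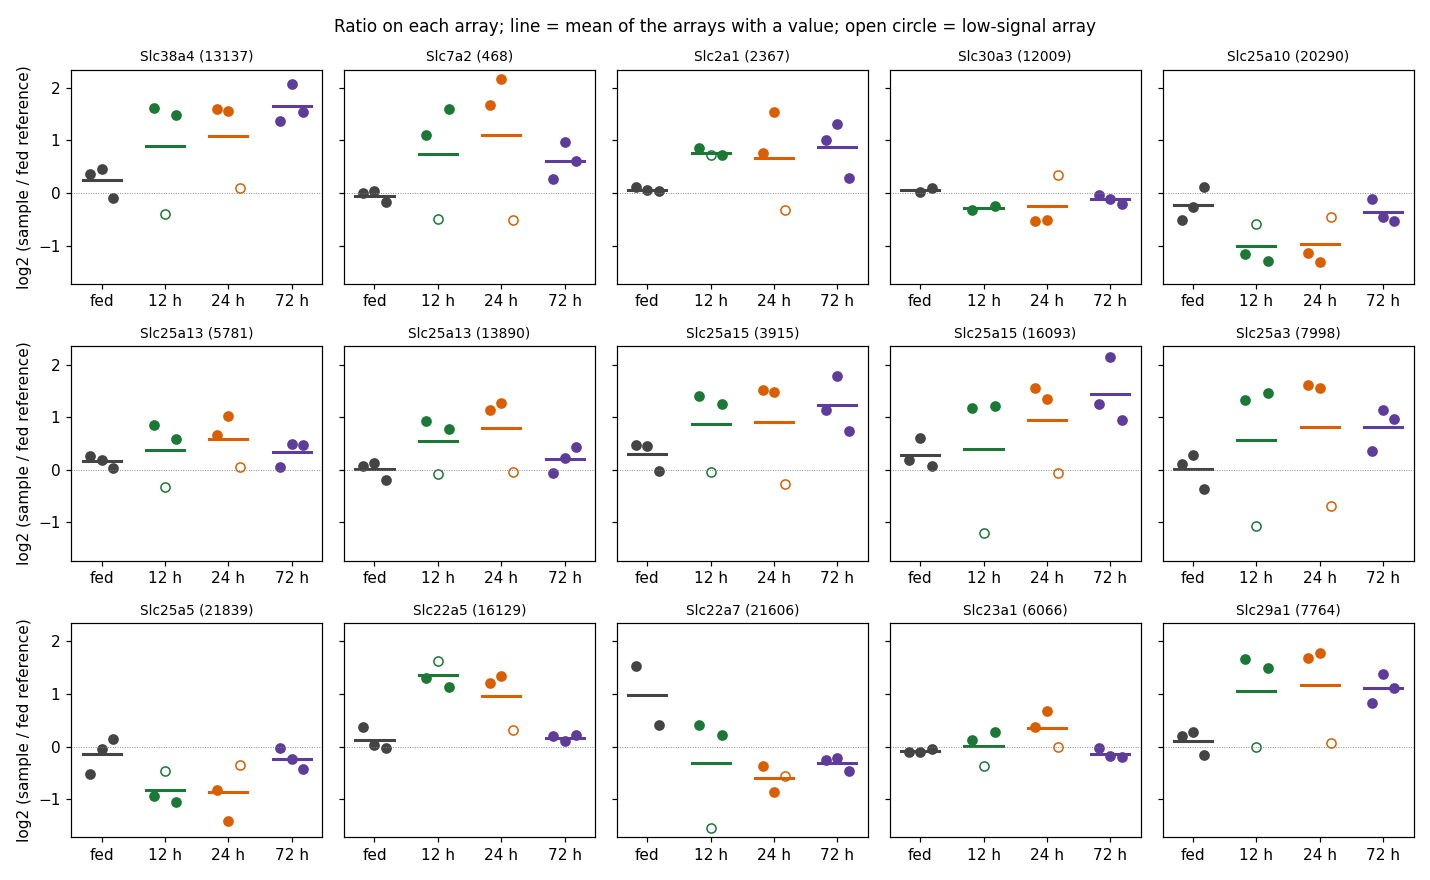
Log2 ratio of sample over fed reference (y axis) on each array of the fed, 12 h, 24 h and 72 h groups (x axis) for the 15 features of named genes that were called against fed at any time without the low-signal arrays. Points are arrays, open circles the low-signal arrays, lines the mean of all arrays with a value. The open circles fall to or below the fed level for most features that are high on the other arrays, but not for Slc22a5 and Slc2a1 at 12 h. The 72 h points of Slc38a4, Slc7a2, Slc25a15, Slc25a3, Slc2a1 and Slc29a1 lie above all fed points.

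Among the mitochondrial carriers, both features of Slc25a15 were higher than fed on every array of 72 h. Slc25a15 encodes ORC1, which exchanges cytosolic ornithine for mitochondrial citrulline and thereby links the mitochondrial and cytosolic steps of the urea cycle. Feature 16093 read 0.18, 0.61 and 0.07 on the fed arrays, 1.17, -1.21 and 1.22 at 12 h, 1.55, 1.35 and -0.06 at 24 h, and 1.25, 2.14 and 0.95 at 72 h. Feature 3915 read 0.47, 0.45 and -0.02, then 1.41, -0.05 and 1.25, then 1.52, 1.48 and -0.26, and finally 1.14, 1.79 and 0.74. At 72 h both features lay above all fed arrays, by 1.16 ± 0.64 and 0.92 ± 0.51 with all arrays (limma, adjusted p = 1.00 for each), and at 12 and 24 h the low-signal arrays alone lay below the fed mean. Without them Slc25a15 rose 2.23-fold (feature 16093; adjusted p = 0.0319) and 2.29-fold (feature 3915; adjusted p = 0.0210) at 24 h, and the 72 h values missed the threshold (adjusted p = 0.0696 and 0.0967). At 24 h they were 0.66 ± 0.64 and 0.61 ± 0.51 with all arrays (adjusted p = 1.00 for each) and -0.54 ± 0.48 and -0.61 ± 0.39 with the day block (adjusted p = 0.483 and 0.318). At 12 h the features were 0.11 ± 0.64 and 0.57 ± 0.51 from fed with all arrays (limma, adjusted p = 0.985 and 0.956). The day block gave -1.09 ± 0.48 and -0.65 ± 0.39 at 12 h (limma, adjusted p = 0.126 and 0.242). Within day 1 the 72 h differences were 1.11 ± 0.34 and 1.01 ± 0.29 (adjusted p = 0.280 and 0.266).

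Slc25a13 encodes citrin, which exports aspartate from the mitochondrion in exchange for glutamate and so supplies argininosuccinate synthesis and the malate-aspartate shuttle. It had 2 features, each named Slc25a13 in 1 version of the names only. Feature 13890 read 0.08, 0.13 and -0.19 in the fed group, 0.93, -0.07 and 0.77 at 12 h, 1.13, 1.27 and -0.04 at 24 h, and -0.06, 0.23 and 0.44 at 72 h. Feature 5781 read 0.27, 0.18 and 0.04 in the fed group, 0.86, -0.32 and 0.58 at 12 h, 0.67, 1.02 and 0.05 at 24 h, and 0.05, 0.49 and 0.48 at 72 h. On both features the day 2 arrays were the highest and the 72 h arrays overlapped the fed ones. After exclusion of the low-signal arrays, feature 13890 rose 1.79-fold at 12 h and 2.29-fold at 24 h (limma, adjusted p = 0.0273 and 0.00473) and stood at 72 h at 0.501 of its 24 h level (adjusted p = 0.0294), and feature 5781 rose 1.60-fold at 24 h (adjusted p = 0.0309). With all arrays feature 13890 was 0.54 ± 0.35 and 0.78 ± 0.35 above fed at 12 and 24 h and feature 5781 0.42 ± 0.32 at 24 h (adjusted p = 0.956, 1.00 and 1.00). The day block gave -0.26 ± 0.25, -0.01 ± 0.25 and -0.30 ± 0.26 for the same values, and neither feature passed.

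Slc25a3, the phosphate carrier that feeds ATP synthase, was split between its features. Feature 7998 read 0.12, 0.28 and -0.36 in the fed group, 1.33, -1.07 and 1.47 at 12 h, 1.61, 1.55 and -0.69 at 24 h, and 0.36, 1.14 and 0.97 at 72 h. All 72 h arrays lay above the fed arrays, and the low-signal arrays lay below them. Without the low-signal arrays this feature rose 2.62-fold at 12 h and 2.97-fold at 24 h (limma, adjusted p = 0.0217 and 0.00666), and its 72 h difference was 0.81 ± 0.20 (adjusted p = 0.102). With all arrays it was 0.56 ± 0.72, 0.81 ± 0.72 and 0.81 ± 0.72 above fed (adjusted p = 0.956, 1.00 and 1.00). The other feature (9887), which has this name in 1 version only, differed from fed by -0.36 to -0.11 with all arrays at the 3 times. With the day block feature 7998 was called lower at 12 h (-1.13 ± 0.35, adjusted p = 0.0443), and its 24 h value was -0.88 ± 0.35 (adjusted p = 0.118).

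The adenine nucleotide translocase Slc25a5 (ANT2), which exchanges ADP for ATP, and the dicarboxylate carrier Slc25a10, which exchanges malate or succinate for phosphate, were split as well. Feature 20290 of Slc25a10, so named in 1 version, read -0.51, -0.27 and 0.11 in the fed group, -1.16, -0.59 and -1.29 at 12 h, -1.15, -1.32 and -0.46 at 24 h, and -0.11, -0.46 and -0.53 at 72 h. All 12 h arrays lay below the fed arrays, and at 24 h the low-signal array overlapped them. With both low-signal arrays left out, it fell to 0.499 of the fed level at 12 h and 0.497 at 24 h (limma, adjusted p = 0.0265 and 0.0133), and it was higher at 72 h than at 24 h by 0.87 ± 0.18 (adjusted p = 0.0488). With all arrays these differences were -0.79 ± 0.27, -0.75 ± 0.27 and 0.61 ± 0.27 (adjusted p = 0.956, 1.00 and 1.00), and with the day block -0.04 ± 0.24, 0.00 ± 0.24 and -0.29 ± 0.29 (adjusted p = 0.923, 0.994 and 0.550). Its other feature (13181), named Slc25a10 in both versions, was 0.01, 0.09 and -0.29 from fed with all arrays.

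Feature 3003 of Slc25a5 was 0.68 ± 0.44, 0.28 ± 0.39 and 0.81 ± 0.39 above fed at 12, 24 and 72 h. Feature 21839, which only 1 version names Slc25a5, read -0.52, -0.05 and 0.14 in the fed group and -0.83, -1.42 and -0.35 at 24 h, and without the low-signal arrays it fell to 0.507 of fed at 24 h (limma, adjusted p = 0.0228), a log2 difference that was -0.72 ± 0.28 with all arrays and 0.09 ± 0.27 with the day block (adjusted p = 1.00 and 0.861). These features thus lay on opposite sides of fed. The citrate carrier Slc25a1 (feature 5818), which exports citrate for lipid synthesis, read 0.34, 0.17 and 0.23 in the fed group and -0.06, 0.12 and 0.08 at 72 h, without overlap, but differed by -0.20 ± 0.23 (adjusted p = 1.00). The oxoglutarate carrier Slc25a11 (feature 2825) was unsteady at 24 h, with 0.72, -1.64 and 0.17, and did not pass at any time.

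**Figure D3:**
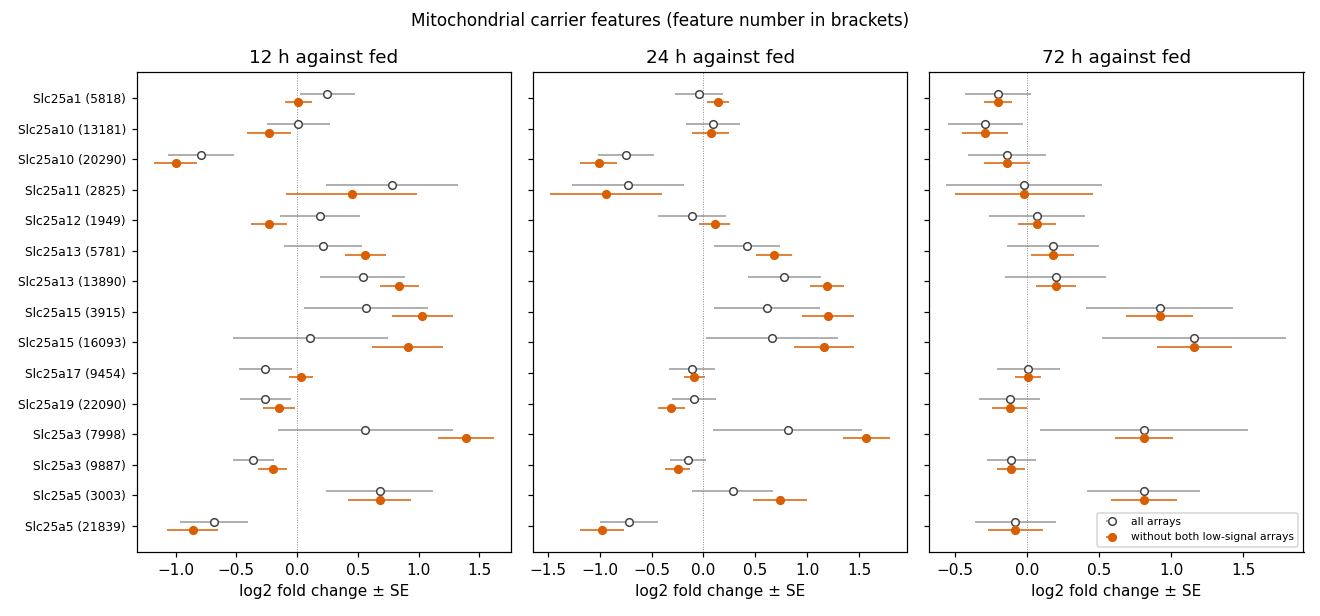
Log2 fold change against fed with its SE (x axis) of the 15 mitochondrial carrier features (y axis) at 12, 24 and 72 h, with all arrays (open) and without the low-signal arrays (filled). Both features of Slc25a15 and feature 7998 of Slc25a3 lie to the right at all times and feature 20290 of Slc25a10 lies to the left at 12 and 24 h, and the bars are shorter for the filled points apart from those of Slc25a11 at 12 and 24 h (SE 0.54 in both settings).

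Of the mitochondrial carriers as a group, 10 of 15 features were above fed at 12 h, 7 at 24 h and 8 at 72 h with all arrays, with medians of 0.19, -0.04 and 0.01. After exclusion of the low-signal arrays, 5 were called higher (Slc25a15 and Slc25a13 with 2 features each and Slc25a3) and 2 lower (Slc25a10 and Slc25a5) at 24 h. Slc25a17, a carrier of the peroxisome that shares the family number, was counted with them. For the 25 genes of any group with more than 1 feature, the features lay on the same side of fed for 15 genes at 12 h, 12 at 24 h and 17 at 72 h with all arrays.

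Among the organic ion transporters, Slc22a5 was high on all 12 h arrays, the low-signal one included. It encodes OCTN2, the sodium-dependent carnitine transporter that supplies the carnitine for mitochondrial fatty acid oxidation. Feature 16129 read 0.37, 0.04 and -0.03 on the fed arrays, 1.30, 1.63 and 1.14 at 12 h, 1.22, 1.34 and 0.31 at 24 h, and 0.20, 0.10 and 0.22 at 72 h. All 12 h arrays lay above the fed arrays, both day 2 arrays of 24 h did, and the 72 h arrays lay within the fed range. With all arrays it was 2.34-fold higher at 12 h and 1.78-fold at 24 h (log2 difference 1.23 ± 0.26 and 0.83 ± 0.26; unadjusted p = 0.000601 and 0.00820), which did not pass over all features (limma, adjusted p = 0.956 and 1.00). Without the low-signal arrays it rose 2.14-fold and 2.23-fold (adjusted p = 0.00740 and 0.00287) and differed by -1.11 ± 0.13 between 72 and 24 h (adjusted p = 0.0159). The day block values were 0.80 ± 0.37 at 12 h and 0.40 ± 0.37 at 24 h (adjusted p = 0.143 and 0.503). Within day 3 the low-signal arrays were 1.25 (12 h) and -0.06 (24 h) from fed array 1. The description of this feature in 1 version names Slc22a9, another member of the family, so that the identity of the transcript is uncertain.

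Slc22a7 encodes OAT2, a basolateral organic anion transporter of the liver. Feature 21606 read 1.54 and 0.41 on fed arrays 1 and 3 (array 2 had no value), 0.41, -1.54 and 0.22 at 12 h, -0.36, -0.86 and -0.56 at 24 h, and -0.25, -0.21 and -0.47 at 72 h. All arrays of 24 and 72 h lay below both fed values, which were themselves far apart. The differences were -1.28 ± 0.53, -1.57 ± 0.53 and -1.29 ± 0.53 with all arrays (unadjusted p = 0.0373, 0.0146 and 0.0366; limma, adjusted p = 0.956, 1.00 and 1.00). With both low-signal arrays left out, Slc22a7 fell at 24 h to 0.332 of the fed level (adjusted p = 0.0181), and its 72 h value of 0.410 missed the threshold (adjusted p = 0.0758). The day block called it lower at 12 h (-2.45 ± 0.61, adjusted p = 0.0263) and 24 h (-2.74 ± 0.61, adjusted p = 0.0285). Against the only fed value of day 1 the 72 h arrays differed by -0.72 on average.

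The monocarboxylate transporter Slc16a1 (MCT1) carries lactate, pyruvate and ketone bodies. Feature 13283 read 0.67, 0.44 and -0.08 in the fed group, 1.43, -1.59 and 1.06 at 12 h, 0.36, 0.38 and -0.80 at 24 h, and 0.24, 0.78 and 0.15 at 72 h. The 12 h arrays of day 2 were the highest, and without the low-signal array they lay 0.90 ± 0.23 above fed (limma, adjusted p = 0.0639). The 12 h call of this feature depended on the fit: with all arrays weighted equally the difference was -0.04 ± 0.66 (adjusted p = 0.995), with array weights it was called higher (0.89, adjusted p = 0.0110), and with the day block it was called lower (-1.71 ± 0.51, adjusted p = 0.0404). At 24 h the day block called it lower too (-2.02 ± 0.51, adjusted p = 0.0357), where the difference was -0.36 ± 0.66 with all arrays and 0.03 ± 0.23 without the low-signal one. Feature 4216, which 1 version names Slc16a1, was within 0.17 of fed at all times. Slc18a1, a vesicular amine transporter of neuroendocrine cells, had the lowest difference without overlap at 12 h, -0.14 ± 0.16 (adjusted p = 0.956). Of the 13 organic ion features, 9, 11 and 11 were below fed at 12, 24 and 72 h, with medians of -0.04, -0.17 and -0.20.

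Of the glucose transporters, Slc2a2 (GLUT2), the main hexose carrier of the hepatocyte, had no call with all arrays or without the low-signal arrays. Feature 13854 read 0.41, 0.24 and 0.01 in the fed group, 0.17, -1.98 and -0.24 at 12 h, 0.03, 0.14 and -0.92 at 24 h, and -0.56, -0.29 and 0.57 at 72 h. The lowest values were those of the low-signal arrays, and without them the differences were -0.25 ± 0.27, -0.13 ± 0.27 and -0.31 ± 0.25 (limma, adjusted p = 0.631, 0.778 and 0.658). With all arrays they were -0.90 ± 0.51, -0.47 ± 0.51 and -0.31 ± 0.51 (adjusted p = 0.956, 1.00 and 1.00), and the day block called Slc2a2 lower at 12 h (-2.07 ± 0.46, adjusted p = 0.0167) and 24 h (-1.64 ± 0.46, adjusted p = 0.0494). Slc2a1 (GLUT1), the ubiquitous glucose transporter that is sparse in hepatocytes, read 0.11, 0.05 and 0.03 in the fed group, 0.86, 0.73 and 0.72 at 12 h, 0.77, 1.54 and -0.32 at 24 h, and 1.01, 1.31 and 0.28 at 72 h. All arrays of 12 and 72 h lay above all fed arrays. The difference was 0.71 ± 0.40, 0.60 ± 0.40 and 0.80 ± 0.40 with all arrays (adjusted p = 0.956, 1.00 and 1.00). After exclusion of the low-signal arrays, Slc2a1 rose 2.14-fold at 24 h (adjusted p = 0.0337), but not at 12 h (adjusted p = 0.156) or 72 h (adjusted p = 0.165). The day block gave 0.14 ± 0.54 at 12 h and 0.04 ± 0.54 at 24 h.

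Among transporters of other substrates, Slc29a1 was called at all 3 times when the low-signal arrays were left out, as Slc38a4 was. It encodes ENT1, the equilibrative carrier of nucleosides such as adenosine. Feature 7764 read 0.21, 0.27 and -0.15 in the fed group, 1.66, -0.01 and 1.50 at 12 h, 1.68, 1.79 and 0.07 at 24 h, and 0.83, 1.39 and 1.11 at 72 h. All 72 h arrays lay above the fed arrays, and the low-signal arrays lay within the fed range. With all arrays it was 0.94 ± 0.50, 1.07 ± 0.50 and 1.00 ± 0.50 above fed (limma, adjusted p = 0.956, 1.00 and 1.00). Without the low-signal arrays Slc29a1 rose 2.77-fold at 12 h, 3.08-fold at 24 h and 2.00-fold at 72 h (adjusted p = 0.00708, 0.00252 and 0.0202), and within day 1 the 72 h difference was 1.05 ± 0.19 (adjusted p = 0.197). The day block turned the 12 and 24 h values to -0.24 ± 0.26 and -0.12 ± 0.26 (adjusted p = 0.521 and 0.809).

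Slc27a2 (feature 10718), a very-long-chain acyl-CoA synthetase that also promotes uptake of fatty acids, read 0.19, 0.57 and -0.46 in the fed group, 1.23, -0.48 and 1.13 at 12 h, 0.88, 0.85 and -0.27 at 24 h, and 0.49, 1.12 and 1.04 at 72 h. It did not pass, also without the low-signal arrays, when it was 1.08 ± 0.26, 0.77 ± 0.26 and 0.78 ± 0.24 above fed (limma, adjusted p = 0.0564, 0.0837 and 0.161). Slc23a1 (feature 6066), a sodium-dependent ascorbate transporter whose name has been exchanged with that of Slc23a2 in current nomenclature, rose 1.53-fold at 24 h without the low-signal arrays (adjusted p = 0.0169) and differed by -0.66 ± 0.12 between 72 and 24 h (adjusted p = 0.0366). With all arrays these values were 0.43 ± 0.21 and -0.48 ± 0.21 (adjusted p = 1.00 for each), and with the day block 0.10 ± 0.19 and -0.16 ± 0.23. The features of Slc23a2 (13224), the thiamine transporter Slc19a2 (17842) and the zinc transporter Slc30a4 (3478) were called higher at 24 h in the same comparison (0.50 ± 0.11, 0.77 ± 0.17 and 0.53 ± 0.13; adjusted p = 0.0234, 0.0377 and 0.0296), and were chosen for mention after their values were seen. With all arrays they were 0.31 ± 0.17, 0.48 ± 0.41 and 0.24 ± 0.32 above fed (adjusted p = 1.00 for each). With the day block Slc23a2 and Slc30a4 were -0.02 ± 0.20 and -0.29 ± 0.20 from fed. Slc19a2 had a value on 1 fed array only, which shares no day with a 24 h array, so that the day block cannot estimate its difference.

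Metal transporters lay slightly below fed, with medians of -0.44, -0.25 and -0.21 over 6 features at 12, 24 and 72 h and 4 of 6 below fed each time. At 12 and 24 h the medians were 0.06 and -0.04 once the low-signal arrays were left out, while from the sample channel alone the medians were -0.22, 0.08 and -0.69 at 12, 24 and 72 h. The lowest value at each time with all arrays was that of a feature of the copper importer Slc31a1. Its 2 features are named Slc31a2 in 1 version, and they were chosen for mention after their values were seen. Feature 13774 read 0.27, 0.40 and -0.11 in the fed group, 0.46, -2.66 and 0.20 at 12 h, 0.28, 0.69 and -0.99 at 24 h, and -0.85, -0.48 and 0.35 at 72 h. Feature 20545 read 0.63, 0.48 and 0.19 in the fed group, -0.67 and 0.33 on 12 h arrays 2 and 3, 0.16, 0.30 and -0.77 at 24 h, and -0.67, -0.32 and 0.34 at 72 h. On both features the low-signal arrays lay below all fed arrays. The differences from fed at 12, 24 and 72 h were -0.85 ± 0.73, -0.19 ± 0.73 and -0.51 ± 0.73 for feature 13774 and -0.60 ± 0.41, -0.54 ± 0.37 and -0.65 ± 0.37 for feature 20545 with all arrays, and none passed (limma, adjusted p from 0.956 to 1.00). At 12 and 24 h they were 0.14 ± 0.29 and 0.30 ± 0.29, and -0.11 ± 0.32 and -0.21 ± 0.25, without the low-signal arrays. The day block called both features lower at 12 h (-2.43 ± 0.57 and -1.29 ± 0.38, adjusted p = 0.0198 and 0.0409) and feature 20545 at 24 h (-1.39 ± 0.38, adjusted p = 0.0477). Slc11a2 (DMT1, feature 12224), the importer of ferrous iron, stayed within 0.12 of fed with all arrays. Slc30a3 (feature 12009), a zinc transporter known from synaptic vesicles, read 0.02 and 0.10 on fed arrays 2 and 3, -0.33 and -0.25 on 12 h arrays 1 and 3, -0.54, -0.52 and 0.34 at 24 h, and -0.03, -0.11 and -0.21 at 72 h. After exclusion of the low-signal arrays, it fell to 0.665 of fed at 24 h (limma, adjusted p = 0.0186). The log2 difference was -0.30 ± 0.27 with all arrays (adjusted p = 1.00), and on the low-signal 24 h array it lay above the fed arrays. The day block cannot estimate this difference, since no day held both a fed and a 24 h value of this feature.

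**Figure D4:**
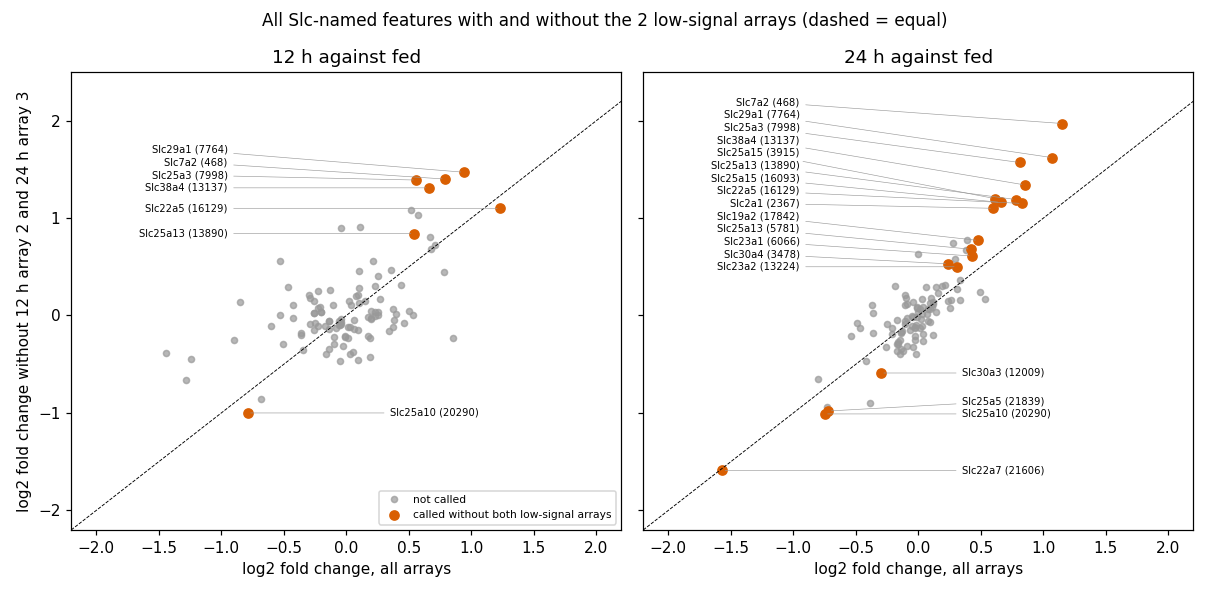
Log2 fold change of the 109 features against fed with all arrays (x axis) and without the 2 low-signal arrays (y axis) at 12 and 24 h, with the line of equal values dashed. Coloured points were called without these arrays (7 at 12 h, 18 at 24 h). The called points lie on the same side of 0 in both settings, and most lie farther from 0 without the low-signal arrays, except Slc22a5 at 12 h.

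The comparison of 72 h with fed involves no low-signal array, and fed arrays of the same day exist. Of the 81 solute carrier features with a value on all fed and all 72 h arrays, 11 had all 72 h arrays above all fed arrays (13.6%) and 7 had all of them below (8.64%), beside 9.20% and 9.66% of all features with complete values. The 11 included both features of Slc38a4 and of Slc25a15, feature 7998 of Slc25a3, Slc29a1, Slc7a2 and Slc2a1, with differences from 0.66 to 1.42. Between 72 and 24 h, 6 of the 109 features were called without the low-signal arrays (5.50%, against 1.30% of all features), lower for Slc7a2, Slc22a5, Slc25a13, Slc23a1 and Slc23a2 and higher for Slc25a10 at 72 h. These times share no quantification day. Between 24 and 12 h none was called in that setting (0.00% of all features), where 8 solute carrier features had an unadjusted p under 0.05 (7.34%, beside 3.57% of all features).

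Other membrane transport genes (ABC transporters, aquaporins, sodium pump subunits, an uncoupling protein, mitochondrial carrier homologs and copper ATPases) gave no call with all arrays among 45 features of 35 genes, with medians of -0.06, -0.02 and -0.01 at 12, 24 and 72 h. With both low-signal arrays left out, 1 was called at 12 h (feature 4503 of Mtch2, listed as pending, 0.97 higher with an adjusted p of 0.0423, while its feature 17810 was 0.11 higher) and 4 at 24 h. At 24 h Abcc3, an exporter of organic anions to the blood, was 1.30 higher (limma, adjusted p = 0.0430), and Ucp2, Abcc4 and feature 20789 of the sodium pump subunit Atp1b1 fell by 0.74, 0.58 and 0.53 on the log2 scale (adjusted p = 0.0272, 0.0410 and 0.0488). The other feature of Atp1b1 (8947) lay 0.33 above fed (adjusted p = 0.373). With all arrays the differences were 0.82 for Abcc3, -0.50 for Ucp2, -0.31 for Abcc4 and -0.33 for feature 20789 (adjusted p = 1.00 for each). None was called at 72 h.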

How the data were processed

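The scanner output deposited by the authors gives intensity values, per the file headers: the median brightness of each spot and its local background in 2 channels, quantified with Agilent Feature Extraction 6.1.1 and not normalized. The authors' log10 ratio of reference over sample, with background subtraction and dye normalization by the software, is in the same deposited files, and the deposited value table holds it with the sign turned (243360 values, largest difference 4.92e-08). The authors themselves used background-subtracted medians, quantile normalization and an ANOVA.

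Here, signals were corrected with limma 3.58.1 in R 4.3.3 (normexp, offset 50, all spots), quantile-normalized over 24 channels after control and retired spots were dropped, and taken as log2 of sample over reference. Spots with an outlier mark in either channel were set to missing (0.345% to 24.7% of features per array, most on fed array 2). A comparison included every feature that had a value in each of both groups and, in 1 group or more, a sample channel well above background throughout. The 4 groups were fitted with lmFit and eBayes. A call needed 1.4-fold and an adjusted p (Benjamini-Hochberg, all features tested) under 0.05, with the fold taken from the study's methods. Each array is a pool of 2 livers, so that p-values measure the spread between pools, and the number of arrays limits the precision. The code was tested on simulated data. The solute carriers, substrate groups, lists and motifs were chosen with earlier results of these data known. Features named are those called, those with an unadjusted p under 0.01 and 1.4-fold against fed, the highest and lowest non-overlapping feature of each substrate group and time, a list of liver transporters, and further features of these genes.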

Additional observations from a re-analysis of the deposited data

Results flagged for a closer look

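For Slc38a1 (feature 13101), all arrays of 24 h lay above the fed mean and all arrays of 72 h below it, with a log2 difference of -0.69 (72 h minus 24 h). Without the low-signal 24 h array, which read 1.29, the difference was -0.33 (limma, adjusted p = 0.131), and with all arrays it did not pass (adjusted p = 1.00). In the fit with a block for the day it was -1.25 (adjusted p = 0.0135), and no day holds arrays of both times.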

How the results depend on the processing

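No solute carrier feature was called at any time with loess within arrays, the scanner software's log ratio, the sample channel alone, plain background subtraction, a stricter or no filter on dim spots, outlier-marked spots kept, or any single array left out (0 to 0 calls in each comparison). With the replicate number as a block there were 0 calls too, and the block changed no call. Arrays of different groups share only a number: deviations of same-numbered arrays from their group means correlated from -0.65 to 0.63, over 0.1 in 5 of 18 pairs. Counts changed in 4 settings. Array weights gave 18, 21, 11 and 7 calls (12, 24 and 72 h against fed, and 72 against 24 h). Without both low-signal arrays there were 7, 18, 2 and 6, and 5, 14, 2 and 4 of these had an Slc name in both versions of the names, a restriction chosen after seeing the data. With quantification day as a block there were 19 at 12 h, 12 at 24 h and 8 between 72 and 24 h, of which 11, 5 and 5 lay on the other side of 0 without the low-signal arrays. The comparison of 72 h and fed arrays alone gave 1. The 12 h value of Slc16a1 (13283) turned to 0.89 with array weights (adjusted p = 0.0110) and was -1.71 with the day block (adjusted p = 0.0404), and that of Slc25a3 (7998) to -1.13 with the day block (adjusted p = 0.0443). The day 1 arrays alone, also chosen after seeing the data, gave 0 calls at 72 h. Of the values of named features, 62 of 1365 changed sign, none of them called, when a single array was left out. The cause of these changes was not tested. With 3 pools per group, and with 2 at 12 and 24 h without the low-signal arrays, differences of this size can be missed, and a missing call does not show an absent change.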
